A study of Mus musculus with 5 samples.

Results

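The genes described here encode the LIF and IL-6 cytokine pathway that runs through STAT3. They are the 10 genes Lif, Lifr, Osmr, Il6ra, Il6st, Stat3, Socs1, Socs2, Socs3 and Pim1, each taken as the row of the deposited expression table that carries its symbol, out of 52459 rows. The cells were mouse pancreatic cancer cells of the HY15549 line background, on a C57BL/6 strain background, grown with serum as organoids embedded in the basement membrane matrix Matrigel. All of them carried the GFP-LC3-RFP construct, which reports autophagy flux, and after dissociation they were sorted by the ratio of green to red signal into autophagy-high cells (AThi, 2 libraries) and autophagy-low cells (ATlo, 3 libraries). Both groups share 1 line, the reporter, the medium and the dissociation, no other treatment is labelled, and the series calls its replicates biological, although no label names separate cultures. The p-values set each group difference against the spread of these 5 libraries within groups, which is partly borrowed across genes. Whether that spread includes differences between separate cultures is not known.

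Cytokines of the IL-6 family, among them LIF, IL-6, IL-11, oncostatin M and CLCF1, bind receptors that share the signalling chain gp130, the product of Il6st. A cytokine-specific chain (LIFR, OSMR, the IL-6 receptor or the IL-11 receptor) joins gp130, JAK kinases bound to the receptor tails phosphorylate STAT3, and STAT3 then switches on target genes. SOCS3 is one of these targets and shuts the receptor off again, and PIM1 is a target that encodes a survival kinase. In pancreatic cancer, LIF from stromal cells is known to act on tumour cells through LIFR and STAT3.

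Levels are given as FPKM, which counts fragments per kilobase of transcript and per 1e6 fragments of the library. Transcripts of Stat3, the shared receptor chain Il6st and the feedback inhibitor Socs3 were higher in AThi, those of the ligand Lif and of Socs2 were lower, and Pim1 did not pass the test. Of the 10 genes, 8 reached a mean of 1 FPKM and were tested, each of them above 1 FPKM in every library, and 4 of these rose, 2 fell and 2 did not pass. Over all 11397 genes tested, 51.6% passed an adjusted p of 0.05, 22.2% with a higher and 29.4% with a lower level in AThi, so a call by itself is common in this comparison. The library values of the groups did not overlap in 7 of the 8 genes, 5 with AThi higher and 2 with AThi lower, and this was so in 70.3% of all tested genes, 31.9% higher and 38.4% lower. The median log2 fold change was 0.30 over the 8 genes and -0.03 over all genes tested. FPKM are relative values of a bulk population, so fewer expressing cells and less RNA per cell cannot be told apart.

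The promoters of Stat3 and Il6st, which rose together with little spread, of Socs3, which rose most, and of Lif, which fell, are shown here so that they can be read beside the values. The sequences are from RefSeq (GRCm38.p6), 5′ to 3′ on the strand of the gene, and are limited to bases before the RefSeq start site that lie outside exons of the gene in GENCODE M21. For Socs3 this stretch falls inside the GENCODE M21 span of the gene, which begins farther upstream. Capitals mark a match to the STAT element TTCNNNGAA or to the AP-1 element TGANTCA, both searched on both strands.
Stat3 (chr11:100939541-100939790, minus strand): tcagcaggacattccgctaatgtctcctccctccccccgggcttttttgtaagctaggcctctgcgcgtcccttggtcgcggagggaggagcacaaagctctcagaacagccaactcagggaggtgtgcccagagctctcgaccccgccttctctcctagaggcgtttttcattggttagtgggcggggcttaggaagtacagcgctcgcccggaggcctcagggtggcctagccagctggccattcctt
Il6st (chr13:112463820-112464069, plus strand): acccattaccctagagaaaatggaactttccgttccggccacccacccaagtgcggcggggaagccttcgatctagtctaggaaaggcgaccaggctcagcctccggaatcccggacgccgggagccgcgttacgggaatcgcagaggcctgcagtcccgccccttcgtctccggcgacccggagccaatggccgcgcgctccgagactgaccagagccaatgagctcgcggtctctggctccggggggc
Socs3 (chr11:117969452-117969616, minus strand): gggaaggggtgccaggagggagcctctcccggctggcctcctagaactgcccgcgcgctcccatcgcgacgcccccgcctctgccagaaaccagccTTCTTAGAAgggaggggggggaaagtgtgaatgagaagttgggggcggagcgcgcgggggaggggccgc
Lif (chr11:4257318-4257556, plus strand): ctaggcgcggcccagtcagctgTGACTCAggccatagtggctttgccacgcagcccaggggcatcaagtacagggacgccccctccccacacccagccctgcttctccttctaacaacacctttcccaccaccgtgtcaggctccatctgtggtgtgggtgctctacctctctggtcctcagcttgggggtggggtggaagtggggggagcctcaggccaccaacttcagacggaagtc

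A window of 300 bases around the start site was found for 9 of the 10 genes (all but Socs2), and Lifr and Pim1 had more than 1 window. The Socs3 window held the STAT element as TTCTTAGAA, beginning 154 bases before the start site, and no other of the 9 genes held that element. It occurs in 9.55% of the 27025 genes with a window. The Lif window held the AP-1 element as TGACTCA, beginning 228 bases before the start site, and the Osmr window held it as TGATTCA just past the start site, against 8.97% of all genes. The stricter form TTCCNGGAA, which is contained in the STAT element, was in none of the 9 and in 1.35% of all genes. A match describes letters in a short window, and binding there was not measured.

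Among the 10 genes Socs3 had the highest level in both groups and Stat3 the second highest. In AThi the order continued with Pim1 and Il6st, whose library values overlapped, then Lif, Socs2 and Socs1, each overlapping the next, then Lifr and Osmr, also overlapping, and Il6ra last. In ATlo, Pim1 was followed by Lif, Il6st and Socs2, each overlapping the next, then Socs1, Lifr, and finally Il6ra and Osmr, which overlapped. By group means Lif was below Il6st in AThi and above it in ATlo, but in ATlo replicate 1 Lif was the lower of them, as in AThi. Osmr was above Il6ra in both AThi libraries and in ATlo replicate 2, and below it in the other ATlo libraries. Over the 5 libraries Il6ra had the lowest mean of these genes. By exon length and implied depth it rested on 105 to 186 reads per library, Osmr on 163 to 1089 and Socs3 on 5511 to 24457.

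**Figure D1:**
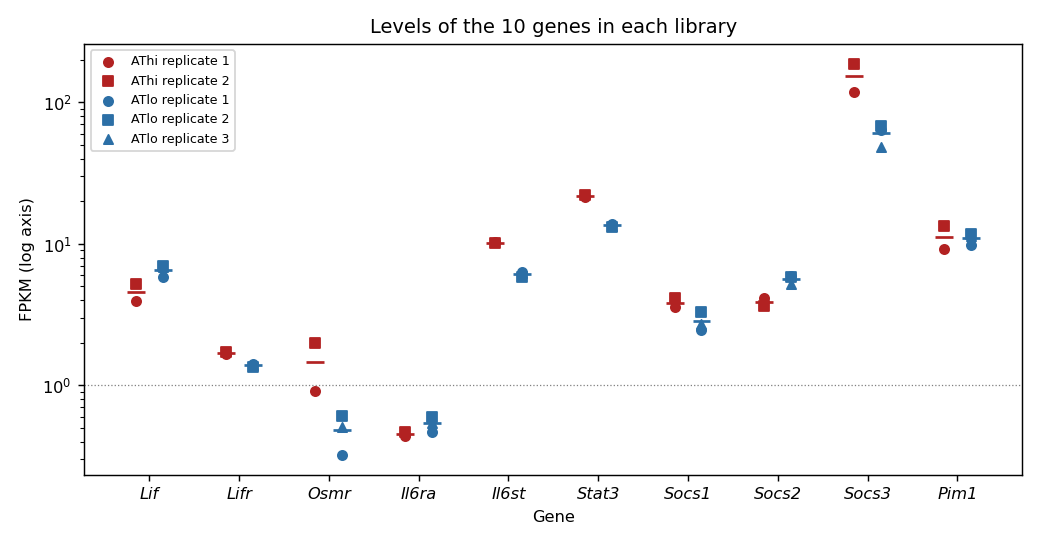
FPKM of the 10 genes (log axis) in the 2 AThi (red) and 3 ATlo (blue) libraries, with a short line at each group mean and a dotted line at 1 FPKM, which the mean over all 5 libraries had to reach for a gene to be tested. Stat3, Il6st and Socs3 sit higher in AThi and Lif and Socs2 lower, while the Pim1 values overlap.

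Lif encodes the cytokine itself. It was at 3.95 and 5.17 FPKM in AThi replicates 1 and 2, and at 5.78, 7.0 and 6.85 FPKM in ATlo replicates 1 to 3. Both AThi libraries were below all 3 ATlo libraries, with AThi replicate 2 close to ATlo replicate 1. The group means were 4.56 ± 0.86 FPKM (SD, n = 2) and 6.54 ± 0.67 FPKM (SD, n = 3), and the log2 fold change was -0.48 ± 0.13 (SE) with an adjusted p of 0.0178. The call was lost without AThi replicate 1 (log2 fold change -0.31, adjusted p 0.108), without ATlo replicate 2 (-0.44, adjusted p 0.0527) and with no filter on low values (adjusted p 0.0681). The Lif gene lies on chromosome 11 (4257557 to 4272514, plus strand, GRCm38).

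Most other ligand genes of the family were below the filter. Of 9 further ligand and ligand-subunit genes described here, 2 were tested and both rose, as did 22.2% of all tested genes. Clcf1, the gene of cardiotrophin-like cytokine factor 1, had the highest level of the list, at 60.8 and 77.35 FPKM in AThi and 48.95, 56.51 and 46.51 FPKM in ATlo. It rose by 0.44 ± 0.12 (SE) on the log2 scale, with an adjusted p of 0.0227, a call lost without AThi replicate 2 (0.27, adjusted p 0.139), without ATlo replicate 1 or 3 (adjusted p 0.0599 and 0.0566) and with no filter (adjusted p 0.0808). Clcf1 was thus 15.4 and 15.0 times as high as Lif in AThi and 6.79 to 8.47 times as high in ATlo, on the FPKM scale, which is per length.

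CLCF1 signals through the CNTF receptor, LIFR and gp130. Cntfr, the gene of the CNTF receptor chain, was at 0.02 FPKM or less in every library.

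Ctf1, the cardiotrophin-1 gene, was at 2.27 and 2.38 FPKM in AThi against 1.51, 1.10 and 1.69 FPKM in ATlo and rose by 0.56 ± 0.15 (SE), with an adjusted p of 0.0205. The Ctf1 call was lost without either AThi library (adjusted p 0.0775 and 0.103) and with no filter (adjusted p 0.0778). Il11 was below the filter, at 0.09 and 0.07 FPKM in AThi and 0.39, 0.73 and 0.81 FPKM in ATlo, and in the fit with no filter it was lower in AThi, by -0.96 ± 0.19 (SE) with an adjusted p of 0.0238, where 22.9% of 24118 genes passed. Il6 was at 0.05 FPKM or less and Osm was listed at 0 in every library, so the genes of the ligands for Il6ra and Osmr were near or at the lower limit of these data.

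The shared chain showed a clear difference. Il6st was at 10.26 and 10.12 FPKM in AThi and at 6.29, 5.80 and 6.18 FPKM in ATlo. The libraries of each group lay close together and the groups were far apart. The log2 fold change was 0.70 ± 0.07 (SE) with an adjusted p of 0.000312, it ranged from 0.67 to 0.72 with any 1 library left out, and it passed in all 13 alternative fits. Il6st lies on chromosome 13 (112464070 to 112510086, plus strand, GRCm38).

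The cytokine-specific receptor genes were expressed at lower levels than Il6st. Lifr, the LIF receptor gene, was at 1.66 and 1.71 FPKM in AThi and 1.41, 1.35 and 1.39 FPKM in ATlo. Its groups did not overlap, but it did not pass the test, as its log2 fold change was 0.21 ± 0.11 (SE) at an adjusted p of 0.139. Il6ra, the IL-6 receptor gene, was below the filter, at 0.44 and 0.47 FPKM in AThi and 0.47, 0.60 and 0.54 FPKM in ATlo, with overlapping groups. Of its 8642 exonic bases, 242 overlap an antisense gene.

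Osmr, the oncostatin M receptor gene, was also below the filter and varied most between libraries. It was at 0.91 and 2.00 FPKM in AThi and at 0.32, 0.61 and 0.51 FPKM in ATlo, so that both AThi libraries were above the ATlo libraries and AThi replicate 2 stood well above all others. With no filter its log2 fold change was 0.95 ± 0.29 (SE) and its adjusted p 0.0802. Il11ra1, the IL-11 receptor gene, was the only tested gene among 3 further receptor genes. It was at 4.11 and 4.50 FPKM in AThi and 3.20, 2.56 and 2.60 FPKM in ATlo and rose by 0.55 ± 0.11 (SE), with an adjusted p of 0.00605. Mouse has near-identical copies of this receptor gene, and how reads shared between copies were counted is not given in the sources used here, so the Il11ra1 value is uncertain.

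Within each library, the mix of the 3 specific receptor genes was set beside the shared chain. Lifr made up 55.1% and 40.9% of the summed FPKM of Lifr, Osmr and Il6ra in AThi and 52.7% to 64.1% in ATlo. Osmr made up 30.2% and 47.8% in AThi and 14.5% to 23.8% in ATlo, and Il6ra made up 14.6% and 11.2% against 21.4% to 23.4%. Lif divided by Il6st was 0.38 and 0.51 in AThi and 0.92 to 1.21 in ATlo. These shares and ratios are descriptions and were not tested.

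**Figure D2:**
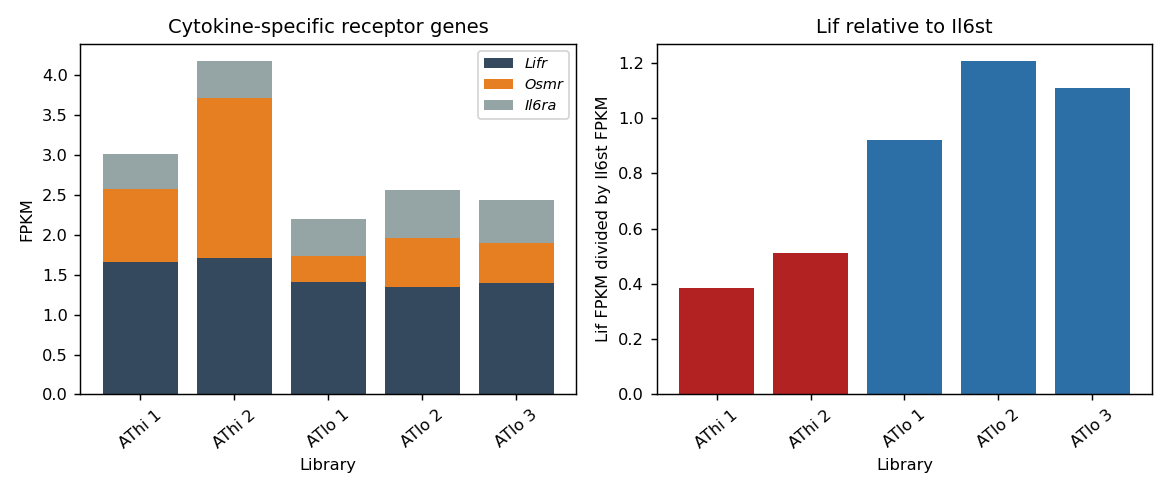
Left, stacked FPKM of Lifr, Osmr and Il6ra in each of the 5 libraries; right, Lif FPKM divided by Il6st FPKM in each library (AThi red, ATlo blue). The Osmr portion is largest in AThi replicate 2, at 2.00 FPKM, and the Lif to Il6st ratio is 0.38 and 0.51 in AThi and at least 0.92 in ATlo.

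Stat3, the transcription factor at the end of the pathway, was at 21.41 and 22.26 FPKM in AThi and at 13.91, 13.23 and 13.39 FPKM in ATlo. As for Il6st, both AThi libraries were well above the 3 ATlo libraries and the spread within groups was small. The log2 fold change was 0.67 ± 0.06 (SE) with an adjusted p of 0.000233, it ranged from 0.65 to 0.70 with any 1 library left out, and it passed in all 13 alternative fits. This absolute change was larger than that of 84.7% of the genes tested. Stat3 lies on chromosome 11 (100885098 to 100939540, minus strand, GRCm38), and 72 of its 9527 exonic bases overlap Stat5a on the opposite strand, where reads could be shared because the strand setting of the counting is not given in the sources used here.

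Of 5 other STAT genes described here, 4 were tested, and 3 of these rose, 0 fell and 1 did not pass. Among all tested genes, 22.2% rose and 29.4% fell. Stat5a rose by 0.55 ± 0.07 (SE), Stat6, the IL-4 and IL-13 responsive factor, by 0.41 ± 0.06 (SE) and Stat5b by 0.40 ± 0.07 (SE), with adjusted p-values of 0.000913, 0.00149 and 0.00381. Stat6 had the highest level of these and Stat3, at 36.5 and 38.25 FPKM in AThi and 27.19 to 28.37 FPKM in ATlo. The interferon-responsive factor Stat2 did not pass, at -0.18 ± 0.11 (SE) on the log2 scale with an adjusted p of 0.202, and Stat4 was listed at 0.

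All 4 JAK kinase genes were tested and 1 of them rose, against 22.2% of all tested genes. Jak3, whose product pairs with the common gamma chain of lymphoid cytokine receptors, was at 22.23 and 27.61 FPKM in AThi and 17.00, 18.06 and 16.09 FPKM in ATlo. It rose by 0.53 ± 0.10 (SE), with an adjusted p of 0.00493. The kinases that serve gp130 did not pass: Jak1 had a log2 fold change of 0.06 ± 0.08 (SE), Jak2 of -0.16 ± 0.08 (SE) and Tyk2 of -0.09 ± 0.07 (SE), with adjusted p-values of 0.530, 0.141 and 0.320. Without AThi replicate 1, Jak2 passed with a log2 fold change of -0.27 and an adjusted p of 0.0470.

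Socs3, the feedback inhibitor that binds gp130 and blocks JAK activity, showed the largest change of the 10 genes. It was at 118.92 and 188.19 FPKM in AThi and at 63.97, 68.25 and 48.67 FPKM in ATlo. Both AThi libraries were above all ATlo libraries, AThi replicate 2 was the highest and ATlo replicate 3 the lowest. The log2 fold change was 1.32 ± 0.21 (SE) with an adjusted p of 0.00243. It ranged from 0.99 without AThi replicate 2 to 1.65 without AThi replicate 1 and kept its call in all 13 alternative fits. A rise of at least 1 on the log2 scale that also passed the test was found in 2.38% of the genes tested. Socs3 lies on chromosome 11 (117966079 to 117970047, minus strand, GRCm38) in GENCODE M21. The stretch printed above, which holds the STAT element match, lies before the RefSeq start site but inside this span.

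Socs3 is also an early-response gene, and genes of that kind moved with the same groups. Of 24 immediate-early and dissociation-response genes, all tested, 17 rose, 3 fell and 4 did not pass, where 22.2% and 29.4% of all tested genes rose and fell. The median log2 fold change of the 24 genes was 1.31. Their summed FPKM was 4900 and 7609 in AThi and 2424, 3000 and 1988 in ATlo. The 5 libraries had the same order in this sum and in Socs3, with AThi replicate 2 highest and ATlo replicate 3 lowest. The largest rises in the list were in Btg2, Egr3, Egr2 and Atf3, at 2.46, 2.39, 2.34 and 2.15 on the log2 scale. Fosl1, Hsph1 and Hspa8 fell, by 0.74, 0.79 and 0.35 on the log2 scale. The part of cell handling in the Socs3 difference was not tested.

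The profiles nearest to those of Stat3, Socs3 and Lif were found by the Euclidean distance between log2(FPKM + 0.5) values centred on their mean over the 5 libraries. Nearest to Socs3 were Junb, Bhlhe40 and Egr1, at distances of 0.12, 0.15 and 0.16, and Junb and Egr1 belong to the immediate-early list. Nearest to Stat3 were Magi1, St3gal4 and Zfp395, at 0.03, 0.04 and 0.05. Nearest to Lif were B9d1, Trim6 and Pdlim7, at 0.06, 0.07 and 0.08. They were the closest of 11397 genes over only 5 libraries, and the distances are a description.

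**Figure D3:**
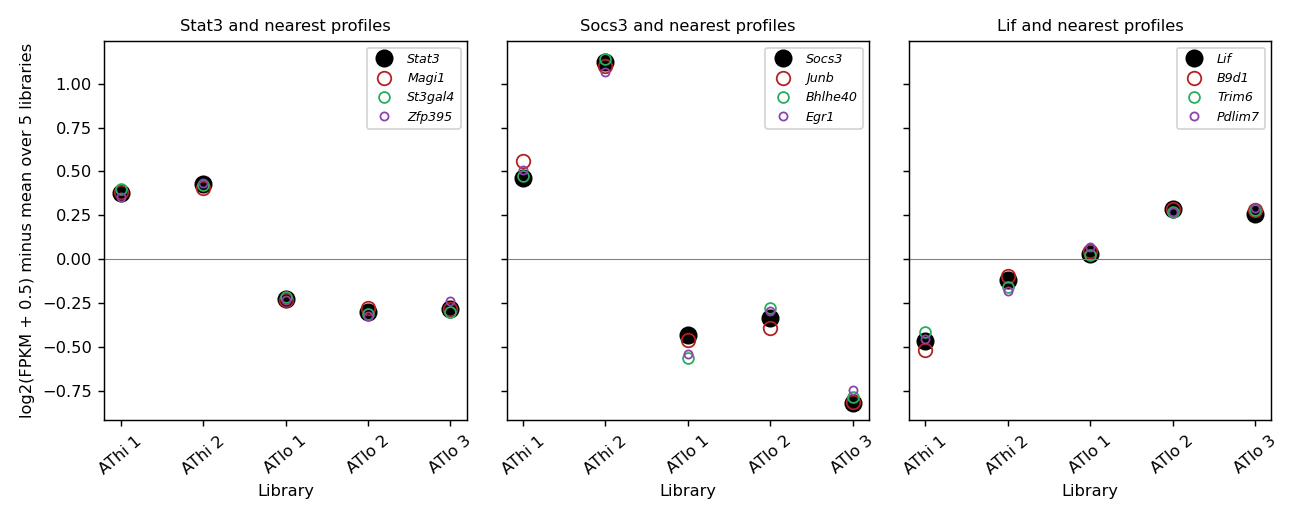
log2(FPKM + 0.5) minus the mean over 5 libraries, for Stat3, Socs3 and Lif (filled) and the 3 tested genes with the nearest profile to each (open), in the 2 AThi and 3 ATlo libraries. Stat3 is nearly flat within each group, whereas Socs3 differs between the AThi libraries and is lowest in ATlo replicate 3, and Lif is lowest in AThi replicate 1.

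Socs1, an inhibitor that acts directly on JAK kinases, was at 3.57 and 4.12 FPKM in AThi and 2.47, 3.31 and 2.70 FPKM in ATlo. The groups did not overlap, although ATlo replicate 2 came close to AThi replicate 1. It rose by 0.39 ± 0.13 (SE), with an adjusted p of 0.0391, and the call was weak. It was lost without either AThi library (adjusted p 0.0664 and 0.206), without ATlo replicate 1 or 3 (adjusted p 0.0876 and 0.0846) and with no filter on low values (adjusted p 0.118). Socs3 was 33.3 and 45.7 times as high as Socs1 in AThi and 18.0 to 25.9 times as high in ATlo.

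Socs2, known chiefly as a brake on growth hormone signalling through STAT5, went the other way. It was at 4.17 and 3.62 FPKM in AThi and at 5.90, 5.86 and 5.21 FPKM in ATlo, with both AThi libraries below the ATlo libraries. The log2 fold change was -0.49 ± 0.09 (SE) with an adjusted p of 0.00478, and the call held with any 1 library left out, between -0.58 and -0.40. Socs1 and Socs3 therefore rose and Socs2 fell, where 22.2% and 29.4% of all tested genes rose and fell. The Socs1 rise was the weak call described above, and other genes of the family are described below.

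Of 5 further genes of the SOCS family, 4 were tested and 1 rose and 1 fell, against 22.2% and 29.4% of all tested genes. Socs7 rose by 0.50 ± 0.07 (SE), with an adjusted p of 0.00112. Socs6 changed by -0.33 ± 0.11 (SE), with an adjusted p of 0.0384, a call lost in 6 of 13 alternative fits, among them those rescaled to TPM (adjusted p 0.0583) or centred on the library median (adjusted p 0.0624), without AThi replicate 2 (-0.21, adjusted p 0.221) and without ATlo replicate 3 (adjusted p 0.0908) or 1 (adjusted p 0.0626). Socs5, the most abundant of these, was at 9.25 and 8.67 FPKM in AThi and 8.31 to 9.54 FPKM in ATlo. Cish, a STAT5 target, was below the filter, at 0.68 and 1.37 FPKM in AThi and 0.54 to 0.64 FPKM in ATlo.

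Phosphatases and PIAS proteins restrain the pathway by other routes. Of 8 of their genes tested, 1 rose, 1 fell and 6 did not pass, where 22.2% and 29.4% of all tested genes rose and fell. The median of the 8 genes on the log2 scale was -0.02. Pias1 rose by 0.39 ± 0.07 (SE), with an adjusted p of 0.00310. Pias3, whose product binds STAT3, was the most abundant in ATlo at 23.66, 20.54 and 21.17 FPKM, and was at 17.28 and 17.69 FPKM in AThi. Its log2 fold change was -0.31 ± 0.08 (SE) with an adjusted p of 0.0138, and the call was lost without either AThi library (adjusted p 0.0692 and 0.0536).

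Pim1 was at 9.14 and 13.35 FPKM in AThi and 9.85, 11.72 and 11.30 FPKM in ATlo. The AThi libraries stood on either side of all ATlo libraries, so the groups overlapped. The log2 fold change was 0.02 ± 0.15 (SE) with an adjusted p of 0.938, and it went from -0.25 without AThi replicate 2 to 0.28 without AThi replicate 1, without passing in any of 13 alternative fits. Part of the gene, 488 of 3362 exonic bases, overlaps an antisense gene. Of the other PIM kinase genes, Pim2 rose by 0.28 ± 0.10 (SE) at an adjusted p of 0.0476, a call lost with any 1 library left out (adjusted p 0.0797 to 0.215). Pim3, the most abundant, was at 45.57 and 62.35 FPKM against 44.08 to 47.42 FPKM, with an adjusted p of 0.213, and passed without AThi replicate 1 (0.43, adjusted p 0.0109).

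Genes that textbooks name as STAT3 targets were read from the same fit. Of 24 listed, 19 were tested, and 10 of these rose, 4 fell and 5 did not pass. Over all tested genes the shares were 22.2% for rises and 29.4% for falls. The median of these 19 log2 fold changes was 0.41. Lcn2, the lipocalin-2 gene of iron and innate defence, rose most, by 2.85 ± 0.41 (SE), followed by Fos, Cebpd and Junb, at 1.65 ± 0.29, 1.54 ± 0.15 and 1.39 ± 0.19 (SE). Cebpd, a transcription factor gene of the acute-phase response, was at 10.58 and 15.55 FPKM in AThi and 4.05, 4.10 and 4.15 FPKM in ATlo. Fos had the highest mean over the 5 libraries, at 785 and 1252 FPKM in AThi and 229 to 440 FPKM in ATlo. In every ATlo library it was below the mucin gene Muc1, at 683 and 628 FPKM in AThi and 508 to 635 FPKM in ATlo, which did not pass the test (adjusted p 0.119). Fos and Junb also belong to the immediate-early list.

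The 4 falls among the listed targets were in genes of varied function. Birc5, which encodes survivin and is expressed in dividing cells, changed by -3.64 ± 0.13 (SE), and Timp1, a metalloprotease inhibitor gene, by -1.01 ± 0.11 (SE). Ccnd1, the cyclin D1 gene, changed by -0.63 ± 0.11 (SE) and Hif1a by -0.50 ± 0.12 (SE). The Hif1a call was lost without AThi replicate 2 (-0.34, adjusted p 0.0825) and with no filter (adjusted p 0.0531). Myc and Bcl3 did not pass, at 0.03 ± 0.09 and 0.02 ± 0.09 (SE). All of these genes also respond to signals other than STAT3, so their counts describe the list and not the activity of the factor. Lrg1 was just below the filter, at 1.82 and 2.68 FPKM in AThi and 0.10 to 0.25 FPKM in ATlo. In the fit with no filter it was higher in AThi, by 2.04 ± 0.19 (SE) with an adjusted p of 0.00331, where 22.9% of 24118 genes passed. The other listed targets below the filter were near or at 0. Fgg and Saa1 were listed at 0 in every library, Saa3 was at 0.02 FPKM or less and Reg3b at 0.16 FPKM or less. Saa3 and Reg3b did not pass with no filter (adjusted p 0.350 and 0.324).

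Over all 8 further lists of the pathway, 44 of 60 genes were tested. Of these 20 rose, 6 fell and 18 did not pass. The shares of rises and falls were 45.5% and 13.6%, where 22.2% and 29.4% of all tested genes rose and fell. The median log2 fold change was 0.23. Of the listed genes, 2 (Fos and Junb) are also in the immediate-early list, and this difference in shares was not tested. The lists were chosen with earlier results of these data known. Among the rises, the target gene Hp reached the filter only through AThi, at 2.60 and 1.93 FPKM against 0.61 to 0.94 FPKM in ATlo.

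**Figure D4:**
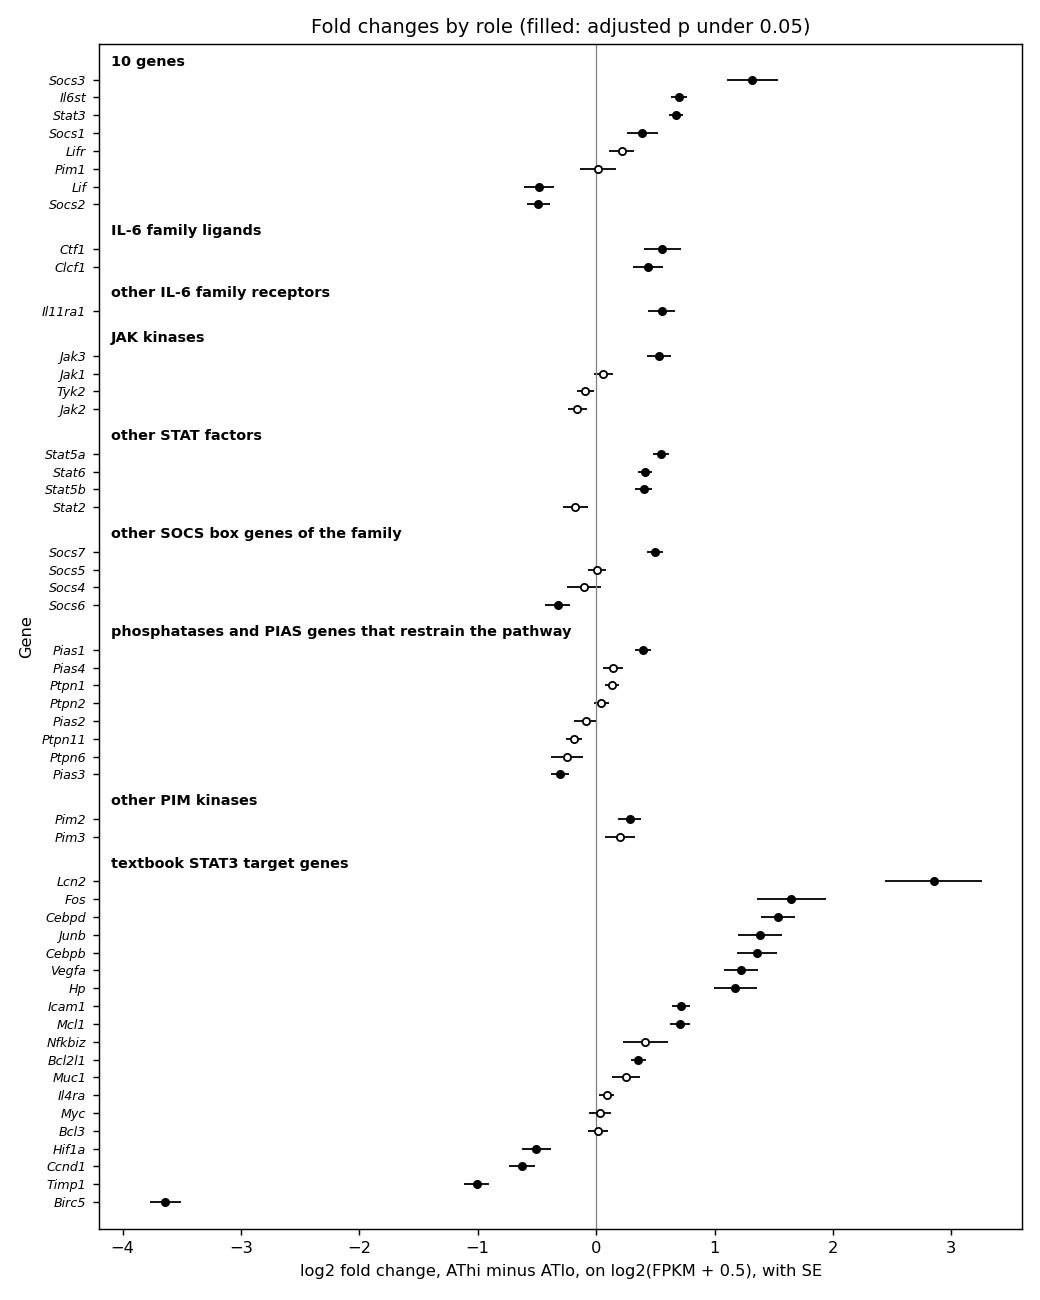
log2 fold change (AThi minus ATlo) with its SE for the 8 tested genes of the 10 and for the 44 tested genes of the pathway lists, grouped by role; filled points passed an adjusted p of 0.05 and open points did not. Socs3, Il6st and Stat3 lie to the right of 0 and Lif and Socs2 to the left, and Lcn2 stands farthest to the right at 2.85.

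The precision of the fold changes differed between the 10 genes. Stat3, Il6st, Socs2 and Socs3 kept their call in every fit in which they were tested, whereas Lif kept it in 10 of 13 and Socs1 in 7 of 12. Lifr and Pim1 passed in none. The direction of the 6 called genes was the same in all these fits, including those that rescaled the libraries.

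**Figure D5:**
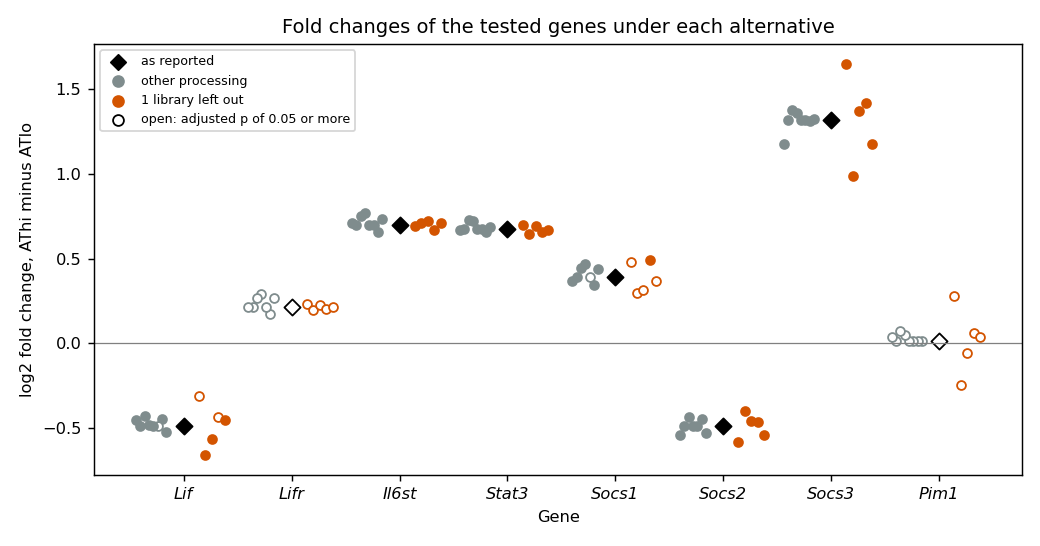
log2 fold change (AThi minus ATlo) of the 8 tested genes as reported (diamonds), under other processing (grey) and with 1 library left out (orange); open symbols have an adjusted p of 0.05 or more. Points of Stat3 and Il6st lie close together, those of Socs3 spread from 0.99 to 1.65, and those of Pim1 lie on both sides of 0.

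The implied depth was 27.6 and 45.0 M reads (M, 1e6) in AThi and 36.0 to 42.2 M in ATlo, so that 3 reads on a transcript of 1 kilobase correspond to 0.067 to 0.109 FPKM. The epithelial keratin gene Krt19 was at 1395 to 1842 FPKM and Cdh1 at 316 to 392 FPKM in all libraries, while the epithelial marker Epcam was at 1.51 to 3.57 FPKM. Where 51.6% of all tested genes passed the test, 1 of the 6 epithelial markers did. This was the keratin gene Krt7, at 71.2 and 83.5 FPKM in AThi and 113 to 131 FPKM in ATlo, where AThi minus ATlo was -0.67 ± 0.10 (SE) on the log2 scale (limma, adjusted p 0.00151). Of 5 acinar markers, 4 were listed at 0 in every library, and the elastase gene Cela1 was at 10.2 to 12.9 FPKM. All 8 fibroblast and all 5 endothelial markers, and 7 of 8 leukocyte and macrophage markers, were below 1 FPKM in every library. The exception was Cd68, a lysosomal protein gene, at 8.68 and 14.74 FPKM in AThi and 4.31 to 4.55 FPKM in ATlo, while the leukocyte gene Ptprc was at 0.05 FPKM or less.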

How the data were processed

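The FPKM values were deposited by the authors in 1 table, a column per library, rounded to 2 decimals. Per the submitters' processing notes, bcl2fastq, STAR, featureCounts and DESeq2 were used, with the builds mm10 and GRCm38; versions, annotation, strand setting and FPKM formula: not given in the sources used here. Total RNA and a stranded mRNA kit were used, per the labels' protocols. The 11397 genes whose mean over the 5 libraries reached 1 FPKM entered limma 3.58.1 (R 4.3.3; lmFit, eBayes with trend, two-sided) on log2(FPKM + 0.5), with group as the single term, 3 residual degrees of freedom and Benjamini-Hochberg adjustment over all tested genes. Adjusted p-values are from this fit or its stated alternative. Fold changes are on that scale, which understates changes of low genes. The fit was also run on simulated data, with normal noise of the fitted size and changes in few genes. In the real data 51.6% passed, so that run does not measure the error rate here.

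The genes and lists were chosen with earlier results of these data known, and 2 listed genes are not reported here. All 10 genes are named; of each list, the tested genes with the largest called changes (up to 4 in each direction), the most abundant gene, and some others chosen after their values were seen. Implied depth and reads came from whole-read steps in single-exon genes of up to 200 bases (tolerance 0.1 of a read, 100% whole) and GENCODE M21 exon lengths. They cover counting error only. Alternatives were other pseudocounts, filters and scalings, robust moderation, a replicate block and leaving out each library.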

Additional observations from a re-analysis of the deposited data

How the results depend on the processing

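The 4 rises and 2 falls among the 8 tested genes kept their direction in every alternative fit that tested them. These were 13 fits, or 12 for Socs1 and Socs2. The count of rises was 3 to 4 with a library left out and the count of falls 1 to 2. The count of falls was 1 with no filter on low values, where Lif missed the threshold, and 1 with a minimum mean of 5 FPKM, where Socs2 was not tested. Over all genes, 1694 to 2483 rose and 2613 to 3240 fell with a library left out, and 1683 rose with a minimum mean of 5 FPKM, where 7685 genes were tested. In the pathway lists, 3 to 6 genes fell with a library left out. The lowest, 3, was without AThi replicate 2. Median centring of the libraries moved the median log2 fold change of all genes from -0.03 to 0.03. With it 3039 genes rose and 2903 fell, and with libraries rescaled to TPM 2828 rose and 3056 fell. Without rescaling 2529 rose and 3355 fell, so which direction held more calls depended on the scaling. Leaving out an AThi library leaves 1, which is assumed to vary like the ATlo libraries. Replicate numbers 1 and 2 occur in both groups, and deviations from the group means of same-numbered libraries correlated across genes at 0.20 and 0.30. The deviations of the 2 AThi libraries mirror each other by construction. AThi replicate 1 with ATlo replicate 2 therefore gave -0.30, and AThi replicate 2 with ATlo replicate 1 gave -0.20. With ATlo replicate 3 the AThi libraries gave 0.06 and -0.06. The titles of same-numbered libraries also share a code, whose meaning no label gives. With only 2 such pairs and no statement of a shared culture, sort or day, the numbers were not taken as pairs. With the replicate block, 2579 genes rose and 3330 fell, 4 and 2 of the 10 genes, and 20 and 6 of the pathway lists. Socs3 was then at 1.17 (adjusted p 6.74e-05) and Lif kept its call. In this fit ATlo replicate 3 is alone in its block and adds nothing to the group difference. Its fold changes are therefore those of the fit without ATlo replicate 3. Its small p-values rest on 2 pairs and on spread borrowed from other genes. Among the pathway genes named, 2 calls changed with the block: Pim2 missed the threshold (adjusted p 0.0538) and Nfkbiz passed it (0.45, adjusted p 0.00216, against 0.111 without the block). With 2 against 3 libraries, genes near the threshold, such as Lif, Socs1, Socs6, Clcf1 and Pim2, are the least certain.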
